A study of Mus musculus with 6 samples.

Results

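The genes described here encode the transcription factors of the immediate early response, the AP-1 subunits Fos, Fosb, Jun, Junb and Jund, the AP-1 partner Atf3, the zinc finger factors Egr1, Egr2 and Egr3, and the nuclear protein Ier2. They were chosen by gene symbol, and 9 of the 10 could be measured as single genes among 30142 genes in all. Junb could not, because its only row on the array also carries the symbol Prdx2. All 6 samples are acute myeloid leukaemia cells of mice, induced by the oncogenic fusion MLL-AF9. Recipient mice were killed with end-stage leukaemia, and the cells were sorted from their marrow and measured on Affymetrix arrays. In 3 of them, called control, the leukaemia came from littermate controls, and in the other 3, called Dnmt3b-KO, from cells lacking Dnmt3b, a de novo DNA methyltransferase. The comparison asks how the loss of Dnmt3b relates to gene expression in these cells. Not given in the sources used here are the deleted exons, any promoter that drove the deletion, the sort markers, the age and sex of the mice, and the time between harvest and extraction.

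AP-1 is a dimer of a FOS family and a JUN family protein, or of JUN proteins with each other or with ATF proteins, joined through their leucine zippers. Fos and Fosb bind DNA as partners of JUN proteins, whereas Jun can act without them. The genes for FOS, JUN and EGR proteins are switched on within minutes by growth factors, cytokines or stress, without new protein synthesis, through kinases that act on the factors SRF, ELK and CREB, and their messenger RNAs are short-lived. In myeloid cells AP-1 and EGR factors take part in differentiation towards monocytes and macrophages. The same genes are also known to be induced when tissue is dissociated and cells are sorted.

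The promoter letters of 4 genes are shown because these genes carry the differences described below. Fos, Fosb and Jun were higher on every Dnmt3b-KO array than on every control array, and Atf3 stood out on 1 array. Each line holds the 250 bases upstream of the start of the gene, read 5′ to 3′ on the strand of the gene, from RefSeq (build GRCm38.p6). Capitals mark TGACG, the core of the cyclic AMP response element bound by CREB and ATF proteins, on either strand (CGTCA), and TGACATCA, the variant AP-1 site of the Jun promoter.
Fos: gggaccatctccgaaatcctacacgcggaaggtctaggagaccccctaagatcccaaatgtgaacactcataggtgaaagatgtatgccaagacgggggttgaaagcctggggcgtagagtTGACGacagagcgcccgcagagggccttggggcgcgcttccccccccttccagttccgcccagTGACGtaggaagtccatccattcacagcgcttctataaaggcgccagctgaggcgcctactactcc
Fosb: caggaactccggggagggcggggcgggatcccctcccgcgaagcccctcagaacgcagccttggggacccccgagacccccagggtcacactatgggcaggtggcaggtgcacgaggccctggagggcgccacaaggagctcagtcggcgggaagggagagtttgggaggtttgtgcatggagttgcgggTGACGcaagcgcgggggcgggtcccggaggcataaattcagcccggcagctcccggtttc
Jun: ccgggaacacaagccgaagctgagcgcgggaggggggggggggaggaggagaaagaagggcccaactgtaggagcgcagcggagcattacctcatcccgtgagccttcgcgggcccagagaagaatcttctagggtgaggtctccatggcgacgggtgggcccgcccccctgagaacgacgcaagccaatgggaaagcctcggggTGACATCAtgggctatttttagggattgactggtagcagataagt
Atf3: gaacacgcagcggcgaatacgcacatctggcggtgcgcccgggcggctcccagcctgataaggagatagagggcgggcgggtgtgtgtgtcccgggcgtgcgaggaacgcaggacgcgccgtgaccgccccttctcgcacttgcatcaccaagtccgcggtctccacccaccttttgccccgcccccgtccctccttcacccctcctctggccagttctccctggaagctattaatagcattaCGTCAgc
These windows lie at chr12:85473640-85473889 on the plus strand for Fos, chr7:19310046-19310295 on the minus strand for Fosb, chr4:95052223-95052472 on the minus strand for Jun and chr1:191183334-191183583 on the minus strand for Atf3. Promoters were matched for 7 of the 10 genes, all but Egr1, Egr3 and Ier2. Whether the window listed for Jund lies at its main start was not settled, and each of the counts of genes below is the same among the 6 without it. In Fos the core TGACG begins 66 bases and again 129 bases upstream of the start, in Fosb 60 bases upstream, and in Atf3 its reverse complement begins 7 bases upstream. TGACG was found in 5 of the 7, against 17.8% of 32851 promoter windows of the same length. It is part of the full element TGACGTCA, which was in 0 of the 7 and 1.55% of all windows. TGACATCA was in 1 of the 7, Jun, where it begins 45 bases upstream, and in 2.93% of all windows. The classical AP-1 site TGANTCA was in 0 of the 7 and 6.75% of all windows. The CArG box, the site bound by SRF, was in 1 of the 7, in 4 of the 5 listed starts of Egr2, and in 1.47% of all windows; the serum response element of Fos lies farther upstream than the window. All motifs were searched on both strands, except for TATAAA, the core promoter letters of the TATA box, which begin 33 bases upstream in Fos. GCGNGGGCG, the letters bound by EGR proteins, was in 1 of the 7, Fosb, and in 4.7% of all windows.

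Values are log2 levels as deposited, and differences are Dnmt3b-KO minus control in the same log2 units. Array medians over all genes ran from 4.75 to 4.85. The targeted gene, Dnmt3b, ran from 6.76 to 6.83 in control, against 6.47, 6.63 and 5.96 on Dnmt3b-KO replicates 1, 2 and 3. Its difference was -0.44 ± 0.17 (SE) over 6 arrays (limma, adjusted p = 0.781) and -0.24 ± 0.07 over 5 arrays without Dnmt3b-KO replicate 3 (adjusted p = 0.159). Dnmt3b-KO replicate 3 stands apart from the other 5 arrays across the genome. It was above the mean of Dnmt3b-KO replicates 1 and 2 by more than 1 in 1215 genes and below it by more than 1 in 886. The comparison was therefore made over 6 arrays and over 5 arrays without it, and that array is also described by itself. Nothing in the labels ties each array to a mouse of its own, and p-values thus reflect the spread among the arrays, possibly a technical one.

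Fos, Fosb and Jun were higher in Dnmt3b-KO than in control on all arrays, by 1.13 to 1.59 over 6 arrays, and Jund showed a smaller difference in the same direction. Egr1, Egr2, Egr3 and Ier2 differed by 0.25 or less in either direction over 6 arrays and by 0.31 or less over 5. None of these differences passed an adjusted p of 0.05 in the limma fit across all genes. The number of genes called was 0 of 9 over 6 arrays, where 0.0% of all genes were called, and 0 of 9 over 5 arrays, where 1.69% were. At an unadjusted p under 0.05, 4 of the 9 were higher and 0 lower with either set of arrays. Over all genes, 2.79% were higher and 3.58% lower by that rule with 6 arrays, and 7.74% higher and 7.73% lower with 5. A linear model without empirical Bayes called 0 of the 9 in both sets. It also called 0 of all 30142 genes in both, so that count says nothing particular about the 9.

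**Figure D1:**
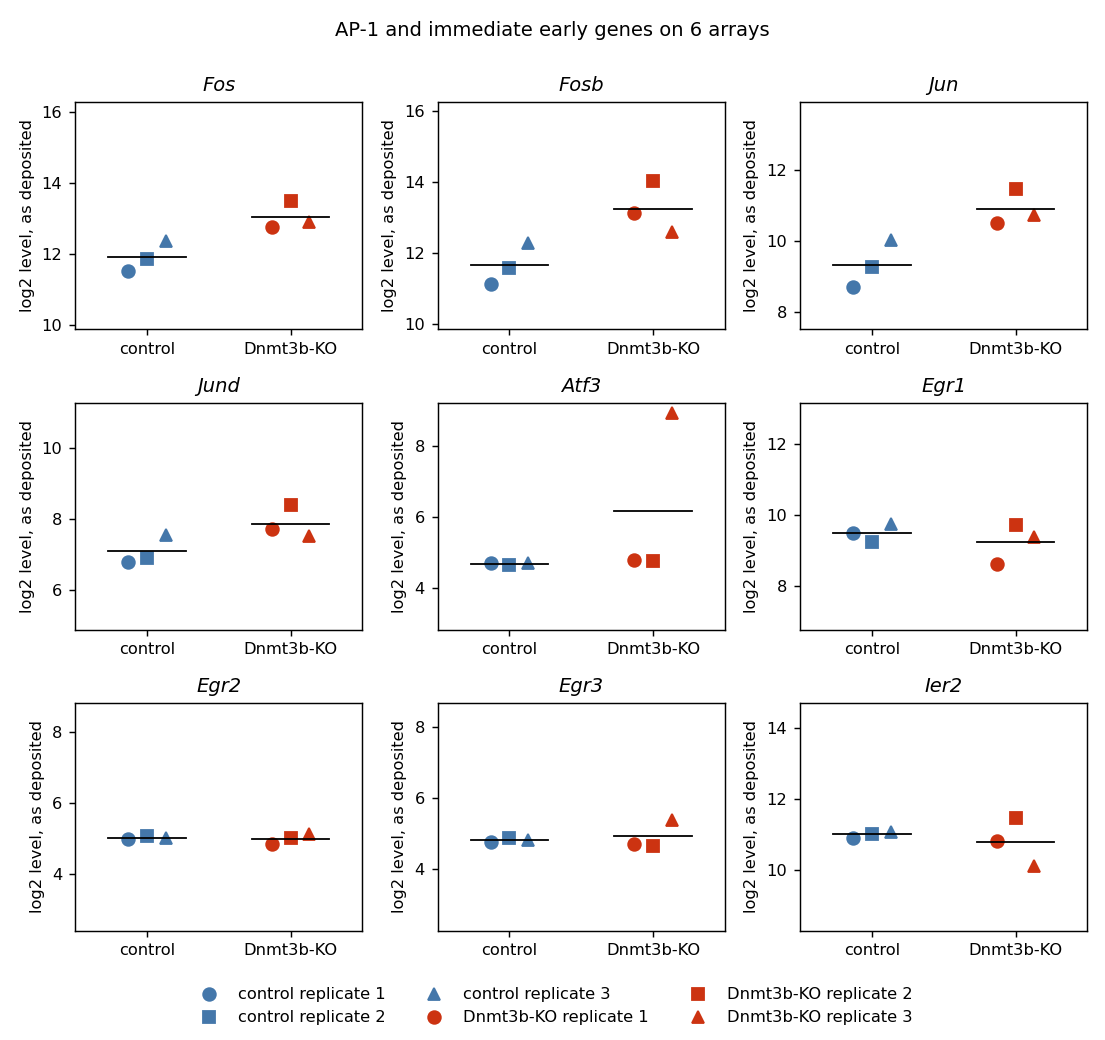
Log2 level of each measured gene on each array (vertical axis, as deposited, with the same span in every panel), for 3 control and 3 Dnmt3b-KO arrays; black lines are group means and the symbol shape gives the replicate number. For Fos, Fosb and Jun the 3 Dnmt3b-KO arrays lie above the 3 controls, and for Atf3 only Dnmt3b-KO replicate 3, at 8.94, lies far from the rest.

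Among the FOS genes, Fos, whose protein forms AP-1 with JUN proteins, measured 11.52, 11.87 and 12.37 on control replicates 1, 2 and 3 and 12.76, 13.48 and 12.90 on Dnmt3b-KO replicates 1, 2 and 3. The groups did not overlap. The lowest Dnmt3b-KO array was 0.39 above the highest control, while the controls spanned 0.85 among themselves. The difference was 1.13 ± 0.28 (SE) over 6 arrays (limma, adjusted p = 0.648) and 1.20 ± 0.29 over 5 (adjusted p = 0.122). Fosb, a second FOS protein induced by the same stimuli, measured 11.14, 11.59 and 12.27 in control and 13.14, 14.03 and 12.59 in Dnmt3b-KO. Again every Dnmt3b-KO array was above every control, with replicate 3 the nearest to them. Fosb differed by 1.59 ± 0.45 over 6 arrays (limma, adjusted p = 0.663) and by 1.92 ± 0.38 over 5 (adjusted p = 0.077), the smallest adjusted p among the 9 genes.

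Among the JUN genes, Jun, which encodes the main activating JUN subunit, measured 8.69, 9.27 and 10.02 in control and 10.51, 11.46 and 10.71 in Dnmt3b-KO. The groups did not overlap. Its difference was 1.56 ± 0.40 over 6 arrays (limma, adjusted p = 0.648) and 1.66 ± 0.43 over 5 (adjusted p = 0.137). Jund, the JUN gene usually expressed without stimulation, measured 6.80, 6.91 and 7.56 in control and 7.71, 8.38 and 7.51 in Dnmt3b-KO. Here Dnmt3b-KO replicate 3 fell just below the highest control, so the groups overlapped over 6 arrays and not over 5. The difference of Jund was 0.78 ± 0.30 over 6 arrays (limma, adjusted p = 0.775) and 0.95 ± 0.28 over 5 (adjusted p = 0.177).

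Counting Atf3 as well, whose value on the controls and on 2 of the Dnmt3b-KO arrays lies near the median gene, 4 of the 9 genes had groups without overlap on the higher side over 6 arrays and 0 on the lower side. Over all genes the shares were 6.68% and 8.21%. Over 5 arrays 5 were higher without overlap and 1, Egr3, lower, against 15.1% and 17.4% of all genes. Differences of at least 1 on the higher side were found for 4 of 9 over 6 arrays, namely Fos, Fosb, Jun and Atf3, and for 3 of 9 over 5 arrays, without Atf3. Of all genes 0.8% and 0.159% reached that size. The median difference of the 9 was 0.78 over 6 arrays and 0.13 over 5, beside 0.00 and -0.01 over all genes.

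**Figure D2:**
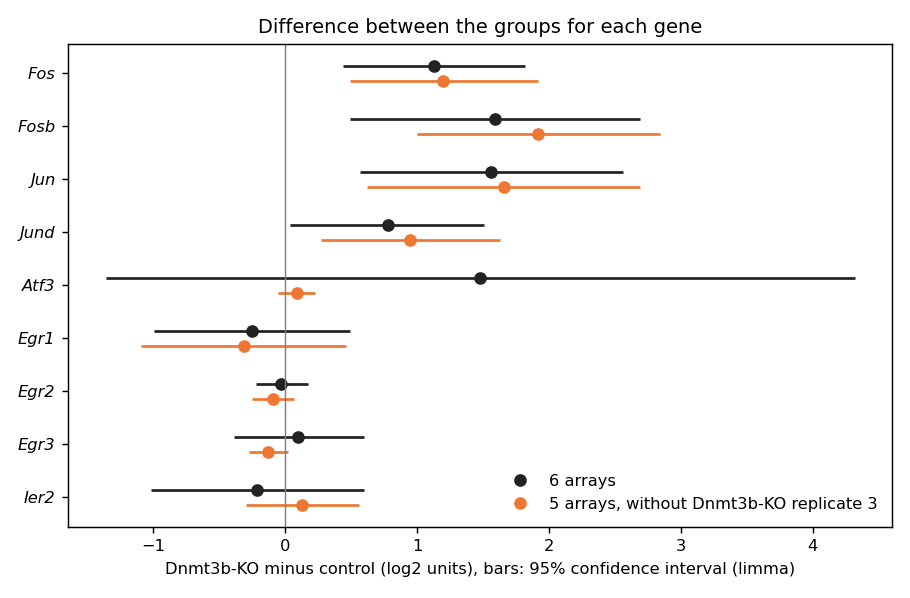
Difference between Dnmt3b-KO and control for each gene in log2 units (horizontal axis), over 6 arrays (black) and without Dnmt3b-KO replicate 3 (orange); bars are 95% confidence intervals from limma, not adjusted for the number of genes. The intervals of Fos, Fosb, Jun and Jund lie above 0 in both fits, and that of Atf3 runs from -1.36 to 4.32 over 6 arrays.

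In the EGR genes and Ier2 the groups overlapped over 6 arrays. Egr1, a zinc finger factor induced together with Fos in most cells, measured 9.48, 9.24 and 9.74 in control and 8.62, 9.72 and 9.38 in Dnmt3b-KO. The lowest value was Dnmt3b-KO replicate 1, the highest control replicate 3, and the groups overlapped. The difference of Egr1 was -0.25 ± 0.30 (95% confidence interval -0.99 to 0.49; limma, adjusted p = 0.858) over 6 arrays and -0.31 ± 0.32 (adjusted p = 0.74) over 5. Ier2, an immediate early gene whose nuclear protein is less well characterised, measured 10.91, 11.00 and 11.08 in control and 10.81, 11.45 and 10.10 in Dnmt3b-KO. Its controls were close together, and the 3 Dnmt3b-KO arrays lay below, above and far below them. Ier2 differed by -0.21 ± 0.33 (95% confidence interval -1.02 to 0.60; limma, adjusted p = 0.89) over 6 arrays and by 0.13 ± 0.18 (adjusted p = 0.816) over 5. The intervals for Egr1 and Ier2 over 6 arrays include differences of either sign and do not show that the groups are alike.

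Egr2 and Egr3, which act in myeloid and lymphoid differentiation, gave values near the median gene on nearly all arrays. Egr2 ran from 4.85 to 5.11 over the 6 arrays, with a difference of -0.03 ± 0.08 (limma, adjusted p = 0.95), and -0.09 ± 0.07 over 5 (adjusted p = 0.625). Egr3 measured 4.76, 4.87 and 4.80 in control and 4.71, 4.65 and 5.38 in Dnmt3b-KO, so replicate 3 was above and the other 2 below every control. The difference of Egr3 was 0.10 ± 0.20 over 6 arrays (limma, adjusted p = 0.913) and -0.13 ± 0.06 over 5 (adjusted p = 0.403). The other rows of Egr3, 2 in number, gave 4.16 to 4.43 on the other 5 arrays and 4.70 and 4.76 on Dnmt3b-KO replicate 3. The signal of Egr2 and Egr3 is too close to that of the median gene for the size of a difference to be exact.

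The genes varied within the groups too, and together. Among the 3 controls, the range was 0.85 for Fos, 1.13 for Fosb, 1.33 for Jun and 0.77 for Jund. A range of at least 0.7 among the controls was found for 4 of the 9 genes and for 0.594% of all genes. For each of these 4 genes control replicate 1 was the lowest and control replicate 3 the highest. Dnmt3b-KO replicate 2 was above Dnmt3b-KO replicate 1 by 0.72 for Fos, 0.90 for Fosb, 0.95 for Jun and 0.67 for Jund, and also by 1.10 for Egr1 and 0.63 for Ier2. A gap of at least 0.6 in that direction was found for 6 of the 9 and for 0.265% of all genes. Egr1 and Ier2 thus shared this gap with the FOS and JUN genes, while their ranges among the controls were 0.51 and 0.17. The cut-offs of 0.7 and 0.6 lie just under the smallest values they count, 0.77 for Jund and 0.63 for Ier2. Because they lie so close to these values, the shares of all genes beside them are a description and no test. The replicates have no order, and the sources used here do not describe the handling of each array.

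The genes whose 6 values, centred on their own mean, lay nearest to those of Fos by Euclidean distance were sought among 15071 genes above the median level. In order they were Zfp36, Mir27a, Jund, Mir23a and Dusp1, at distances of 0.43 to 0.62. Jun was in place 7 and Fosb in place 15, whereas Egr1 was in place 10079 and Ier2 in place 10661. Zfp36, whose protein binds AU-rich messenger RNAs and speeds their decay, measured 10.11, 10.29 and 10.94 in control and 11.11, 11.63 and 11.05 in Dnmt3b-KO. Dusp1, an early response phosphatase that switches off MAP kinases, measured 13.16, 13.38 and 14.18 in control and 15.03, 15.53 and 14.61 in Dnmt3b-KO. Mir27a, a microRNA gene of the same cluster as Mir23a, measured 7.62, 8.05 and 8.29 in control and 8.83, 9.55 and 8.51 in Dnmt3b-KO. In all 3 of these genes every Dnmt3b-KO array was above every control, as were 6.68% of all genes. They were picked for values near those of Fos, whose groups did not overlap, so this is no separate result. Jund, also among the nearest 5, overlapped on Dnmt3b-KO replicate 3. The difference of Dusp1 over 5 arrays, 1.70 ± 0.31, did not pass (limma, adjusted p = 0.0631), nor did that of Zfp36, 0.93 ± 0.27 (adjusted p = 0.169). The 5 nearest to Egr1 were Gm3962, Gm3978, Vmn2r46, Gm12846 and Gm23297, none of them a known early response gene, at distances of 0.44 to 0.53. These lists describe 6 arrays and the distance counts the group difference as well as the spread within groups.

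**Figure D3:**
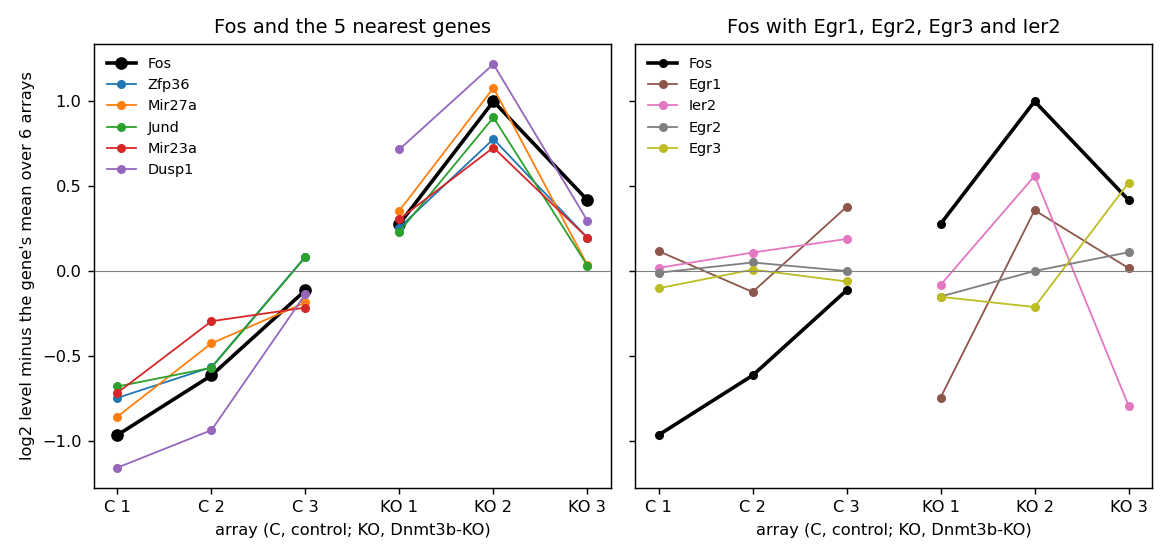
Log2 level minus the mean of the gene over 6 arrays (vertical axis) on each array, for Fos with its 5 nearest genes (left) and for Fos with Egr1, Egr2, Egr3 and Ier2 (right); lines only join the values of a gene within a group, and replicates have no order. On the left every gene is lowest on control replicate 1 and highest on Dnmt3b-KO replicate 2, and on the right Egr1 is lowest on Dnmt3b-KO replicate 1 and Ier2 on Dnmt3b-KO replicate 3.

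Among the 9 genes, Dnmt3b-KO replicate 3 differed from the other Dnmt3b-KO arrays most in Atf3, a stress-induced ATF protein that pairs with JUN. Atf3 measured 4.72, 4.65 and 4.71 in control, 4.80 and 4.76 on Dnmt3b-KO replicates 1 and 2, and 8.94 on replicate 3. Only that array was above the median gene by more than 1, and it decides the 6-array difference of 1.48 ± 1.15 (limma, adjusted p = 0.833), which was 0.09 ± 0.06 (adjusted p = 0.539) without it. Against the mean of Dnmt3b-KO replicates 1 and 2, replicate 3 was higher by 4.16 for Atf3 and by 0.69 for Egr3. It was lower by 1.03 for Ier2, by 0.99 for Fosb and by 0.53 for Jund, and within 0.28 for Fos, Jun, Egr1 and Egr2. Of the 9 genes 1 was above and 1 below by more than 1, against 4.03% and 2.94% of all genes. Fos, Fosb and Jun on that array were above every control, by 0.98, 0.93 and 1.38 over the control mean. A single array has no replicate, so these values carry no test. The same array was high in markers of monocytes and macrophages, with 11 of 18 above Dnmt3b-KO replicates 1 and 2 by more than 1 and 2 below. The mean log2 level of these 18 was 10.17 there, 7.07 to 7.25 on the controls and 7.11 to 7.30 on Dnmt3b-KO replicates 1 and 2. Marco and Cd163 stayed near the median gene on all arrays and C1qa reached 4.84. The part of these cells in the value of Atf3 was not tested, and in RNA from a sorted population more cells of a type and more RNA per cell cannot be told apart.

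Of the other members of the FOS and EGR families and AP-1 partners, 15 of 17 could be measured. In the limma fits 0 passed in either direction over 6 arrays and 0 over 5, beside 0.0% and 1.69% of all genes. At an unadjusted p under 0.05 there were 0 and 2, all lower. Of all genes 3.58% were lower by that rule over 6 arrays and 7.73% over 5, while 2.79% and 7.74% were higher. The median difference was 0.04 over 6 arrays and 0.01 over 5. Fosl1, a FOS family gene induced later than Fos, had the smallest p over 5 arrays with a difference of -0.25 ± 0.07 (limma, adjusted p = 0.162), at levels of 3.78 to 4.12, below the median gene. Maf, a bZIP factor of macrophages singled out after its values were seen, measured 8.33 on Dnmt3b-KO replicate 3 and 4.40 to 4.47 on the other 5 arrays. Of the upstream kinases and factors 18 of 22 were measured, with a median difference of -0.02 over 6 arrays and 0.03 over 5. In either set of arrays 0 of the 18 passed, beside 0.0% of all genes over 6 arrays and 1.69% over 5. Srf, the factor that binds the serum response element of Fos and of the EGR genes, had the smallest p over 5 arrays. It measured 11.56, 11.43 and 11.48 in control and 11.18, 11.28 and 10.01 in Dnmt3b-KO. Every Dnmt3b-KO array of Srf was below every control, as for 8.21% of all genes. The difference of Srf was -0.67 ± 0.34 over 6 arrays (limma, adjusted p = 0.823) and -0.26 ± 0.07 over 5 (adjusted p = 0.136), opposite in sign to that of Fos.

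All 40 other immediate early and early response genes of the list were measured. Over 6 arrays 0 passed in the limma fit. At an unadjusted p under 0.05, 7 were higher and 1 lower, beside 2.79% and 3.58% of all genes. Over 5 arrays 3 of 40 rose and 0 fell, beside 0.939% of all genes called higher and 0.75% called lower. By the unadjusted rule 16 were higher and 2 lower over 5 arrays, beside 7.74% and 7.73% of all genes. The median difference of the list was 0.14 over 6 arrays and 0.17 over 5. Klf6, a zinc finger factor induced by growth signals, measured 10.24, 10.59 and 10.79 in control and 11.98, 12.49 and 13.28 in Dnmt3b-KO. Its rise over 5 arrays was 1.69 ± 0.20 (limma, adjusted p = 0.0241), and its difference over 6 arrays was 2.04 ± 0.34 (adjusted p = 0.526). Klf2, a factor of leukocyte quiescence and trafficking, measured 8.49, 8.69 and 9.22 in control and 10.25, 10.88 and 9.92 in Dnmt3b-KO, with a rise over 5 arrays of 1.77 ± 0.26 (limma, adjusted p = 0.0372) and a difference over 6 arrays of 1.55 ± 0.30 (adjusted p = 0.566). Both genes were above every control on all 3 Dnmt3b-KO arrays, as were 6.68% of all genes. Rhob, an early response gene for a small GTPase, measured 10.99, 10.97 and 11.09 in control and 11.77, 12.14 and 10.44 in Dnmt3b-KO, so it rose by 0.93 ± 0.11 over 5 arrays (limma, adjusted p = 0.0261) and lay below every control on replicate 3. Over 6 arrays Rhob differed by 0.43 ± 0.43 (limma, adjusted p = 0.839). Leaving out any control ended the call of each of these 3 genes, with adjusted p from 0.0518 to 0.121 in limma. Those fits called 43, 262 and 97 of all 30142 genes, against 509 over 5 arrays, so calls were lost across the genome. With any further array left out, the differences were 1.45 to 2.08 for Klf2, 1.44 to 1.95 for Klf6 and 0.75 to 1.12 for Rhob. On Dnmt3b-KO replicate 3, 8 of the 40 were above and 2 below replicates 1 and 2 by more than 1, against 4.03% and 2.94% of all genes.

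**Figure D4:**
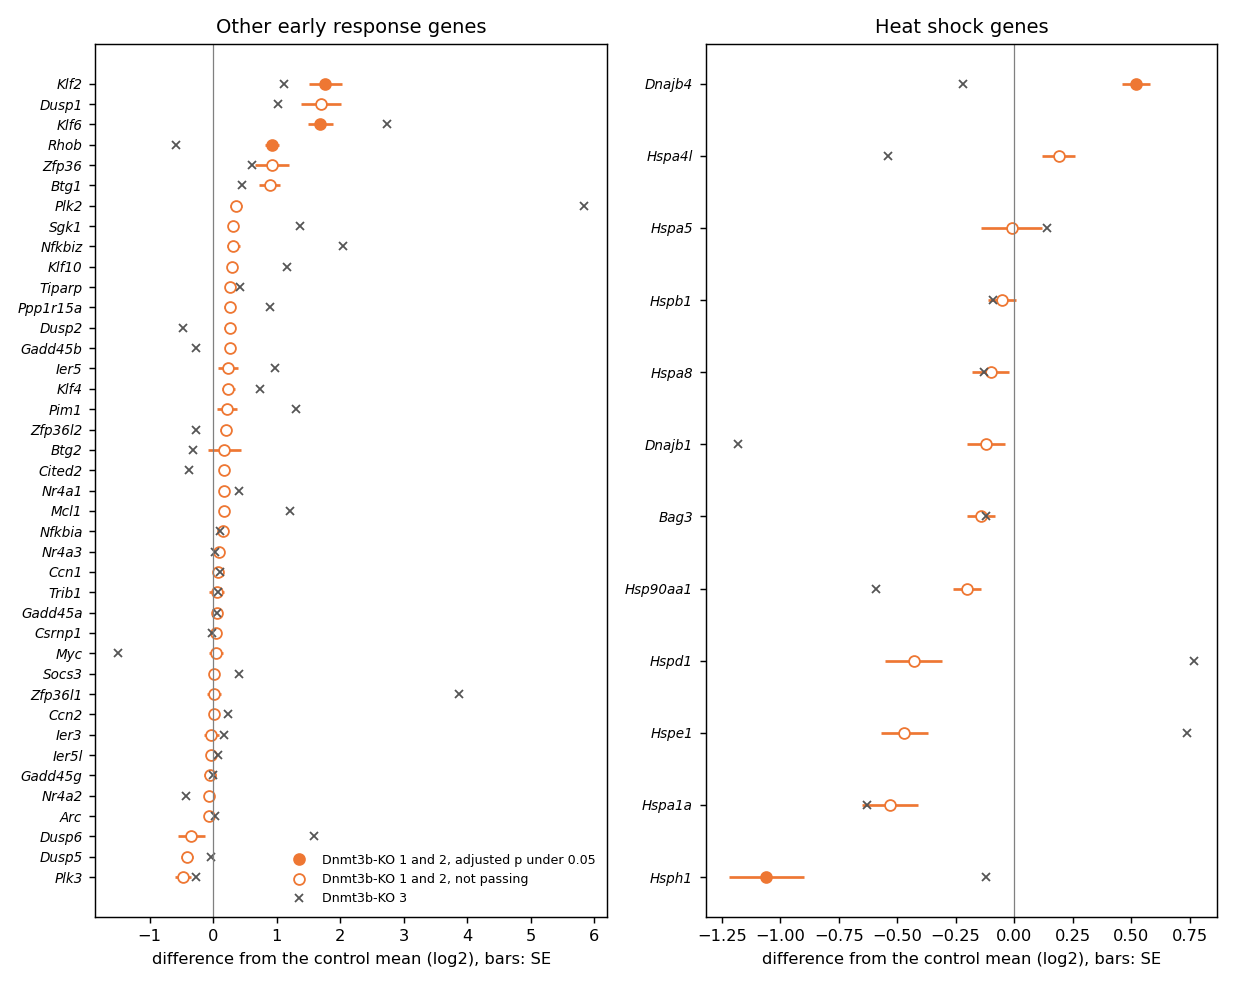
Difference from the control mean in log2 units (horizontal axis, scaled separately in each panel) for 40 other early response genes and 12 heat shock genes; circles are Dnmt3b-KO replicates 1 and 2 with the SE of the 5-array fit, filled where the adjusted p is under 0.05, and crosses are Dnmt3b-KO replicate 3. Most early response genes lie at or above 0 and most heat shock genes below it, and the crosses often lie away from the circles.

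Genes reported as targets of AP-1 or EGR factors in other cells were measured for 13 of 15. In limma 0 passed in either set of arrays, beside 0.0% of all genes over 6 arrays and 1.69% over 5. At an unadjusted p under 0.05, 2 were higher and 0 lower over 6 arrays, beside 2.79% and 3.58% of all genes. Over 5 arrays 2 were higher and 1 lower by that rule, beside 7.74% and 7.73% of all genes. The median difference of the 13 was 0.24 over 6 arrays and 0.07 over 5. On Dnmt3b-KO replicate 3, 5 of the 13 were above replicates 1 and 2 by more than 1 and 0 were below. Of all genes 4.03% were above and 2.94% below. The mean log2 level of the 13 was 8.71 on that array. It was 7.16 to 7.26 on the controls and 7.26 to 7.29 on Dnmt3b-KO replicates 1 and 2. Mmp9, a matrix metalloproteinase with AP-1 sites in its promoter, had the smallest p over 5 arrays. It measured 5.33, 5.09 and 5.58 in control and 6.01, 6.32 and 7.66 in Dnmt3b-KO. Its groups were apart on all arrays, as on the higher side for 6.68% of all genes. The difference of Mmp9 was 1.33 ± 0.44 over 6 arrays (limma, adjusted p = 0.707) and 0.83 ± 0.16 over 5 (adjusted p = 0.0711).

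Heat shock genes are also known to respond to handling of cells, and 12 of 16 were measured. In each set of arrays 10 of the 12 differences were below 0, beside 15437 of all 30142 genes over 6 arrays and 16195 over 5. The medians were -0.09 over 6 arrays and -0.13 over 5. Some of the differences were near 0, such as -0.01 for Hspa5 and -0.05 for Hspb1 over 5 arrays. Over 6 arrays 0 passed in limma, with 0 higher and 4 lower at an unadjusted p under 0.05, where 2.79% of all genes were higher and 3.58% lower. Over 5 arrays 1 rose and 1 fell, beside 0.939% and 0.75% of all genes. By the unadjusted rule 2 were higher and 6 lower over 5 arrays, beside 7.74% and 7.73% of all genes. Dnajb4, an HSP40 co-chaperone, rose by 0.52 ± 0.06 (limma, adjusted p = 0.0201), and Hsph1, which helps HSP70 release its nucleotide, fell by 1.06 ± 0.16 (adjusted p = 0.0393). Dnmt3b-KO replicate 3 measured 7.05 for Dnajb4, below every control, and 10.13 for Hsph1, within them. Over 6 arrays Dnajb4 differed by 0.28 ± 0.21 (limma, adjusted p = 0.833) and Hsph1 by -0.75 ± 0.30 (adjusted p = 0.781). Of 12 hypoxia genes 0 passed over 6 arrays, and over 5 arrays 2 rose and 0 fell, where 0.939% of all genes were called higher and 0.75% lower, with medians of 0.24 and 0.06. These were Bnip3l, a mitophagy receptor, with 0.46 ± 0.06 (limma, adjusted p = 0.0315), and Pdk1, a kinase that limits pyruvate oxidation, with 0.33 ± 0.05 (adjusted p = 0.0488). Over 6 arrays they differed by 0.30 ± 0.15 (limma, adjusted p = 0.823) and 0.55 ± 0.19 (adjusted p = 0.734). Leaving out any control ended the calls of Hsph1, Bnip3l and Pdk1, and leaving out control replicate 1 or 3 ended that of Dnajb4. Those fits called 43, 262 and 97 of all 30142 genes, against 509 over 5 arrays. With any further array left out, the differences were -1.23 to -0.89 for Hsph1 and 0.49 to 0.55 for Dnajb4. They were 0.43 to 0.50 for Bnip3l and 0.31 to 0.35 for Pdk1. The part of sample handling in the differences of the FOS and JUN genes was not tested.

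The labelled cell type was checked by its markers. The mean log2 level of 10 genes of leukaemic myeloid progenitors, among them Kit, Mpo and Elane, was 12.26 to 12.28 on the controls, 12.32 to 12.38 on Dnmt3b-KO replicates 1 and 2 and 11.69 on replicate 3. Over 5 arrays Meis1 differed by 0.65 ± 0.06 (limma, adjusted p = 0.0111) and Cd34 by -1.01 ± 0.15 (adjusted p = 0.0378), 1 of the 10 in each direction. Of all genes 0.939% were called higher and 0.75% lower. On Dnmt3b-KO replicate 3 both genes were below every control, at 10.21 and 6.84. Over 6 arrays 0 of the 10 passed, as among all genes. Flt3 was below the median gene on all arrays. Markers of T and NK cells averaged 3.88 to 4.04 over the arrays, with all 6 below the median gene, and those of stroma and endothelium 4.59 to 4.88, with 6 of 7 below it. Markers of B cells averaged 4.76 to 5.11 with 5 of 6 below it. Of 9 markers of mast cells, basophils and eosinophils 5 fell and 1, Siglecf, rose over 5 arrays (limma), beside 0.75% and 0.939% of all genes. Over 6 arrays 0 of the 9 markers passed, as among all genes. The means of these markers were 8.34 to 8.42 in control, 7.17 to 7.44 on Dnmt3b-KO replicates 1 and 2 and 6.13 on replicate 3. Erythroid markers averaged 4.95 to 5.22 in control, 4.54 to 4.68 on Dnmt3b-KO replicates 1 and 2 and 4.53 on replicate 3. Late neutrophil markers averaged 7.77 to 8.40 in control and 7.64 to 7.86 on Dnmt3b-KO replicates 1 and 2, so these overlapped. On replicate 3 they averaged 6.85. Of the 9 late neutrophil markers 1, Retnlg, fell over 5 arrays (limma, adjusted p = 0.0161) and 0 rose, beside 0.75% and 0.939% of all genes. Over 6 arrays 0 of them passed, as among all genes. The part of these cell types in the differences of the FOS and JUN genes was not tested.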

How the data were processed

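RNA from 6 samples was measured on Affymetrix mouse arrays, 3 control and 3 Dnmt3b-KO. The authors deposited 1 table of log2 values for all arrays, and the submitters' processing notes name RMA without a version. The largest value is 19.59, while a 16-bit scanner allows 16 on the log2 scale, so a step that is not stated moved the scale, and differences are not converted to folds. Of 72688 rows, 30604 carry exactly 1 gene symbol and 2146 several in an older annotation, and symbols of 827 rows were updated by gene identifier. Each of 30142 genes was represented by its row with the highest mean. The groups were compared in limma 3.58.1 (R 4.3.3), with Benjamini-Hochberg adjustment over all genes and a threshold of 0.05, over 6 arrays and over 5 without Dnmt3b-KO replicate 3. The fit was tested on simulated data. Precision is limited by how few arrays there are.

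The members, gene lists, tests and alternatives were chosen with earlier results of these data known. All members are named. Each list adds up to 4 genes per direction past the threshold over 5 arrays and up to 2 over 6, or else the gene with the smallest p over 5 arrays. Genes nearest to Fos and Egr1 were taken by distance. The alternatives were array weights, a block for the replicate number, a robust fit with a variance trend, a further quantile normalization, arrays centred on the median, genes above the median level only, the mean of rows, rows tested singly, an adjusted p under 0.1, no empirical Bayes and leaving out each array. Promoter letters came from RefSeq. Figures were drawn with matplotlib 3.10.9.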

Additional observations from a re-analysis of the deposited data

How the results depend on the processing

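Over 6 arrays the count of called genes, 0 of 9, stayed 0 under every alternative run, including each left-out array (0 to 0). Over all genes 0 were called in these runs too, except with array weights (103 of 30142) and without Dnmt3b-KO replicate 3 (509). In the other runs the count among the 9 could thus not move. Over 5 arrays 0 became 3 with the replicate number as a block (Fos, Fosb and Jun, adjusted p = 0.0433, 0.035 and 0.035 in limma), 2 among genes above the median level (Fos and Fosb), where fewer genes are tested, and 1 at an adjusted p under 0.1 (Fosb). It stayed 0 under the other alternatives, including each control left out (0 to 0). With control replicate 1, 2 or 3 left out, 43, 262 and 97 of all 30142 genes were called, against 509 over 5 arrays. Over all genes, the block called 96 of 30142 over 5 arrays. Among genes above the median level 1003 of 15071 were called, and 1148 of 30142 passed an adjusted p under 0.1. Deviations of same-numbered samples correlated at 0.13, 0.03 and 0.11, and Dnmt3b-KO replicate 2 correlated best with control replicate 1, so the numbers were not taken as pairs. Over 5 arrays the block rests on 2 pairs. Over 6 arrays it gave 0 calls, among the 9 and among all genes. The differences of Fos, Fosb, Jun and Jund kept their sign throughout. Leave-one-out ranges over 6 arrays were 0.91 to 1.35, 1.20 to 1.92, 1.24 to 1.91 and 0.52 to 1.01. For Fos, Fosb and Jun no left-out array could turn the sign, because the groups do not overlap, so the kept sign is no test of them. With array weights over 6 arrays Egr3 turned to -0.11 and Ier2 to 0.18. Leaving out 1 array also turned differences near 0, with ranges over 6 arrays of -0.49 to 0.06 for Egr1, -0.09 to 0.04 for Egr2, -0.13 to 0.24 for Egr3 and -0.54 to 0.13 for Ier2, and over 5 arrays of -0.86 to 0.23 for Egr1 and -0.18 to 0.45 for Ier2. The 2 genes that set Dnmt3b-KO replicate 3 apart by more than 1 became 1 after repeated quantile normalization, and centring each array on its median made them 3. Among other named genes that passed over 5 arrays, the block ended the calls of Rhob, Dnajb4, Bnip3l and Pdk1 (adjusted p = 0.0829, 0.099, 0.1 and 0.159 in limma). Pdk1 also missed the threshold with the variance trend (0.0603) and repeated quantile normalization (0.0575). Without empirical Bayes 0 of all 30142 genes passed over 5 arrays, so none of the named genes that had passed could do so. Where 1 Dnmt3b-KO array is left, its spread is taken to equal that of the controls. The cause of these changes was not tested.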
